A study of Homo sapiens with 6 samples.

Results

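CTCF ChIP-seq peaks were compared between clone D3 and clone E4, a pair of clones of the colorectal carcinoma line HCT-116. The labels give both clones the genotype "CTCF mutation" without naming the site, and state that no treatment was used. The third CTCF library of the series came from HCT-116 cells labelled WT. Each peak list came from 1 library of 1 clone, after formaldehyde fixation, precipitation with an antibody to CTCF and paired-end sequencing. All peaks on chromosomes 1 to 22 of both clones were taken, 94312 of the 136014 CTCF peaks of the series, of which 56103 were D3 peaks and 38209 E4 peaks. Peaks of the clones were matched where they overlapped by 1 bp or more.

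CTCF is a zinc finger protein that binds DNA at insulators and at the anchors of chromatin loops. The ring-shaped cohesin complex extrudes chromatin loops and halts at bound CTCF, which partitions chromosomes into domains and sets which enhancers meet which promoters. In ChIP-seq, a stretch of DNA with more reads than its surroundings is called a peak. Its fold enrichment and −log10 q (a larger value is a stronger peak) are the authors' values. They were used here to order peaks within a list and, where stated, to set a fixed limit in both lists. A −log10 q of 5 or more was reached by 37983 D3 and 25413 E4 peaks, so counts at a fixed limit also carry the difference in list length. A peak's percentile is the share of its own list with a lower −log10 q.

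The D3 list was longer and its peaks were wider. D3 peaks covered 54.1 Mb with a median width of 882 bp and a median −log10 q of 8.79, and E4 peaks covered 32.1 Mb with medians of 757 bp and 7.90. Read numbers are unknown here, so the length of a list, the depth behind it and the binding in the cells cannot be told apart. The clones were therefore also compared with the D3 list shortened to its 38209 peaks of highest −log10 q, the length of the E4 list. The D3 peaks on both sides of that limit had a −log10 q of 4.93. With 1 library a clone there was no replicate check and no test: a difference between clones cannot be told apart from a difference between libraries, and the exact (Clopper-Pearson) 95% intervals cover counting error only.

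Nearly every E4 peak lay in the D3 list. At full length D3 peaks overlapped 97.5% of E4 peaks (95% interval 97.3 to 97.6), which left 965 E4 peaks, or 2.53%, without a D3 peak. In the other direction E4 peaks overlapped 66.0% of D3 peaks (65.6 to 66.4), which left 19072 D3 peaks, or 34%, without an E4 peak. At equal length both unmatched counts must come out close, since nearly all shared regions paired 1 peak with 1 peak. Of the D3 peaks 86.5% (86.1 to 86.8) had an E4 peak and 5161, or 13.5%, did not, and of the E4 peaks 87.1% (86.8 to 87.5) had a D3 peak and 4920, or 12.9%, did not.

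The unmatched peaks were weak and narrow. At full length, D3 peaks without an E4 peak had a median width of 486 bp and a median percentile of 20.1, against 1068 bp and 66.5 for those with one. E4 peaks without a D3 peak had medians of 363 bp and 6.59, against 768 bp and 51.2. In the weakest decile of the D3 list 89.1% of peaks had no E4 peak, and in its strongest decile 0.285% had none. The E4 list went from 15.8% in its weakest decile to 0% in its strongest. At full length a −log10 q of at least 10 was reached by 990 unmatched and 24733 matched D3 peaks, and by 6 unmatched and 15698 matched E4 peaks. At equal length the unmatched E4 peaks of that strength numbered 19, against the same 990 in D3. Of the unmatched peaks at equal length, 43.8% on the D3 side (42.5 to 45.2) and 34.6% on the E4 side (33.2 to 35.9) overlapped a WT peak, against 91.3% and 91.2% of the matched ones.

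The 10 strongest peaks of the D3 list with no E4 peak within 1 kb all had a counterpart in the WT library. The first was chr12:126017608-126018655 (hg19) inside TMEM132B, with an enrichment of 18.5-fold and a −log10 q of 44.7 at the 96.7 percentile of the D3 list, and the nearest E4 peak lay 129 kb away. The peak at chr19:21665602-21667048, 21.4 kb from the zinc finger gene ZNF429, stood at the 94.9 percentile in D3 and at the 99.7 percentile in WT, while the nearest E4 peak was 406 kb away. A peak at chr9:90277679-90278577 inside DAPK1, the death-associated protein kinase gene, stood at the 94.5 percentile. Another at chr9:87568671-87569772 inside NTRK2, which encodes a receptor for brain-derived neurotrophic factor, stood at the 93.9 percentile. The ABCA9 peak at chr17:67053993-67054970, in an ABC transporter gene, was the only 1 of the 10 with no neighbouring D3-only region, and an E4 peak lay 8.90 kb away. The remaining 5 lay at chr12:127865437-127866238, chr8:20898260-20899384, chr16:5540149-5541202, chr5:6837278-6839364 and chr20:19186076-19187222, at percentiles from 92.5 to 95.7. Among the 100 strongest D3-only peaks, 97 overlapped a WT peak and 20 were single, the others standing beside further D3-only regions. Over all D3-only regions at full length 41.4% were single, and 20.5% of all unmatched D3 peaks overlapped a WT peak.

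The strongest E4 peaks without a D3 peak within 1 kb were weaker and mostly single, as were E4-only regions as a whole. The first, chr18:78015241-78016184, was enriched 10.9-fold, with a −log10 q of 18.5, at the 81.1 percentile of the E4 list. It was followed by chr20:62406276-62407125 inside ZBTB46, a transcription factor gene known from dendritic cells, at the 78.9 percentile and 3.03 kb from a D3 peak. The third, chr14:56806579-56807295, had no WT peak and stood at the 69.7 percentile. The peaks at chr12:121124504-121125207 in MLEC, which encodes the endoplasmic reticulum lectin malectin, at chr8:144461445-144462428 in RHPN1 and at chr11:93769233-93769861 in HEPHL1 stood at the 66.3, 63.4 and 62.4 percentiles. The other 4 lay between the 47.0 and 57.2 percentiles, and 7 of the 10 overlapped a WT peak. Among the 100 strongest E4-only peaks 37 overlapped a WT peak and 83 were single. Over all E4-only regions at full length 91.4% were single, and 13.2% of all unmatched E4 peaks overlapped a WT peak. The 100 strongest reached down to a −log10 q of 3.95 in E4 and of 18.9 in D3, so these sets are unlike in strength.

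Peaks of both clones that touched were merged into regions. At full length there were 56972 regions, of which 36935 (64.8%) held a peak of each clone, 19072 were D3-only and 965 E4-only. Each shared region was ranked from 0 to 100 by its highest −log10 q in each clone, and the rank difference is the D3 rank minus the E4 rank in percentile points. Across the 36935 shared regions the ranks had a Spearman's rho of 0.837, given as a description, since regions are not replicates. The median absolute rank difference was 9.41 points, and 20.6% of regions differed by 20 points or more. By decile of the mean of both ranks, the median absolute difference was 5.55 points in the weakest, 14.7 in the fourth and 2.66 in the strongest. Ranks end at 0 and 100, so regions with a mean rank near either end can differ by few points only. These values therefore cannot show whether strong regions were steadier between the clones.

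Bins with a rank difference were spread over many chromosomes, and stretches of neighbouring ones lay on 2 chromosome arms. Of the 535 bins of 5 Mb with 20 or more shared regions, 27 (5.05%) had a median rank at least 5 points higher in D3, and 23 (4.3%) at least 5 points higher in E4. Bin medians ran from −10.4 to 18.1 points. Neighbouring bins formed a segment of 3 or more only on 8q and at the end of 11q, both with D3 higher, and no segment had E4 higher. These segments held 11 of the 27 D3-higher bins, which lay on 13 chromosomes in all. Single bins elsewhere were as one-sided, such as 80 to 85 Mb of chromosome 16, where 63 of 75 shared regions ranked higher in D3 with a median of 8.03 points. The plot of bin medians by chromosome shows 10 of the 27 D3-higher bins on chromosome 8.

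**Figure D1:**
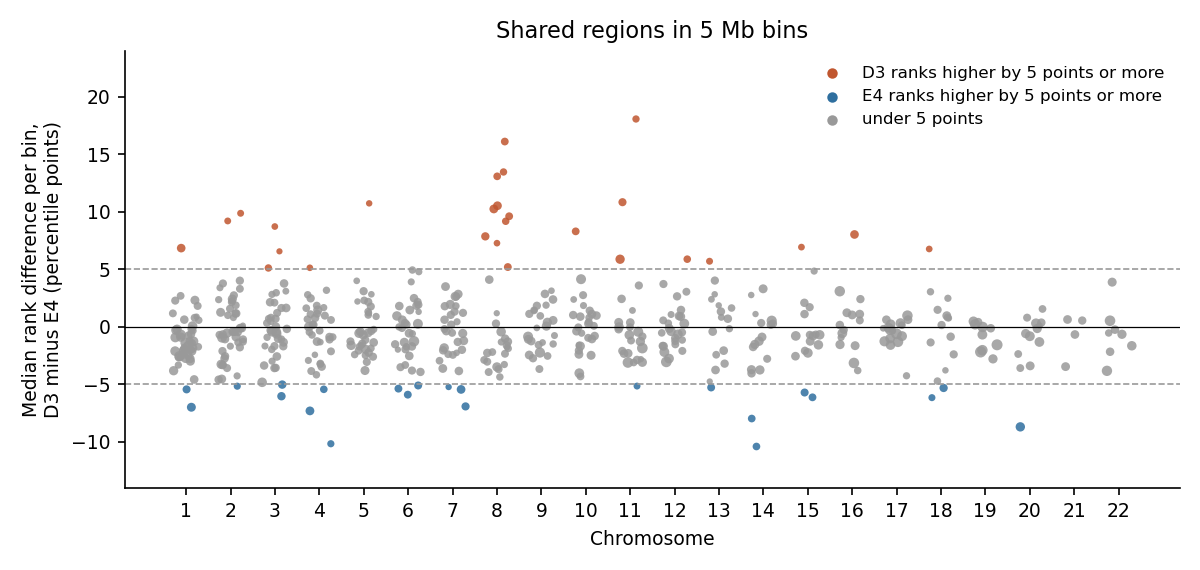
Median rank difference of shared regions (D3 minus E4, percentile points, y axis) in 535 bins of 5 Mb by chromosome (x axis). Points are spread sideways at random, with area by the square root of the number of regions. Dashed lines mark 5 points; the highest bin, at 18.1, lies on chromosome 11 and the lowest, at −10.4, on chromosome 14.

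The 8q segment ran over 8 neighbouring bins, from 85 to 125 Mb of chromosome 8. Its bin medians were 16.1, 9.61, 10.5, 10.2, 13.1, 9.18, 13.5 and 7.86 points in order along the arm. Of its 449 shared regions 341 (75.9%) ranked higher in D3, with a median difference of 10.3 points, against −1.57 points before the segment and −0.257 points after it. The segment was chosen by these rank differences, so higher D3 ranks inside it, also at its genes below, follow from the choice. The segment held 774 D3, 461 E4 and 587 WT peaks at full length, so that there were 0.596 E4 peaks for each D3 peak, against 0.681 over all autosomes. Without an E4 peak were 42.0% of its D3 peaks at full length (38.5 to 45.6) and 20.8% at equal length (17.4 to 24.5), and without a D3 peak 9.76% of its E4 peaks at equal length (7.21 to 12.8). Past the segment, at the end of the arm, these shares were close to it, at 38.3% (34 to 42.8), 19.3% (15.3 to 23.9) and 9.78% (6.74 to 13.6), with intervals that overlapped those of the segment. Before it they were 36.7% (34.1 to 39.2), 16.3% (14.1 to 18.8) and 13.2% (11.1 to 15.6), and over all autosomes 34.0%, 13.5% and 12.9%. Peaks in shared regions of the segment were 1132 bp wide in D3 and 697 bp in E4 by the median. The segment remained in some form under each setting tried, as 90 to 130 Mb with bins of 10 Mb, as 2 pieces with bins of 2 Mb, as 85 to 120 Mb with ranks by fold and as 95 to 110 Mb with a limit of 10 points.

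Along the 8q segment 10 genes were counted at full length, where E4 had 0.681 peaks for each D3 peak over all autosomes. At equal length RUNX1T1, ZFPM2, TRPS1 and HAS2 had as many D3 as E4 peaks. Within 10 kb of CSMD3, which encodes a large membrane protein, there were 18 D3 and 6 E4 peaks, and all 6 shared regions ranked higher in D3, with a median difference of 31.7 points. MMP16, a membrane-bound matrix metalloproteinase gene, had 8 D3 and 4 E4 peaks, and all 4 shared regions ranked higher in D3. The same held for the 4 shared regions of GRHL2, a transcription factor gene of epithelial cells, with 6 D3 and 4 E4 peaks and a median difference of 31.6 points. RAD21, the gene of the cohesin subunit that closes the ring, had 3 D3 peaks, 2 WT peaks and no E4 peak. CDH17, the gene of an intestinal cadherin, had 5 D3 and 2 E4 peaks. TRPS1, a zinc finger repressor gene, had 4 and 2. EXT1, whose product polymerises heparan sulfate, had 6 D3 and 2 E4 peaks, yet only 1 of its 2 shared regions ranked higher in D3. ZFPM2, a gene of a GATA cofactor, had 7 and 5, and RUNX1T1, a corepressor gene, 3 and 2. HAS2, a hyaluronan synthase gene, had 2 peaks in each clone, both ranking higher in D3.

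The 11q segment covered the last 3 bins of the arm, from 120 to 135 Mb of chromosome 11, with medians of 5.88, 10.8 and 18.1 points. Of its 197 shared regions 150 (76.1%) ranked higher in D3, with a median difference of 8.39 points, against −1.08 points over the rest of the chromosome. Here too the rank differences chose the segment, so higher D3 ranks inside it and at its genes follow from the choice. The segment held 348 D3, 203 E4 and 210 WT peaks. Without an E4 peak were 42.8% of its D3 peaks at full length (37.6 to 48.2) and 21.5% at equal length (16.6 to 27.2), and without a D3 peak 4.43% of its E4 peaks at equal length (2.05 to 8.25). The segment was found at both list lengths, but not with ranks by fold, where the bin medians were 2.96, 6.02 and 9.49 points and the first fell below the limit of 5. A stretch of this length cannot hold 3 bins of 10 Mb. Its 2 bins of that size had medians of 7.57 and 18.1 points. With bins of 2 Mb, 4 bins from 120 Mb on had 20 or more shared regions, with medians of 1.20, 10.1, 7.74 and 13.8 points.

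**Figure D2:**
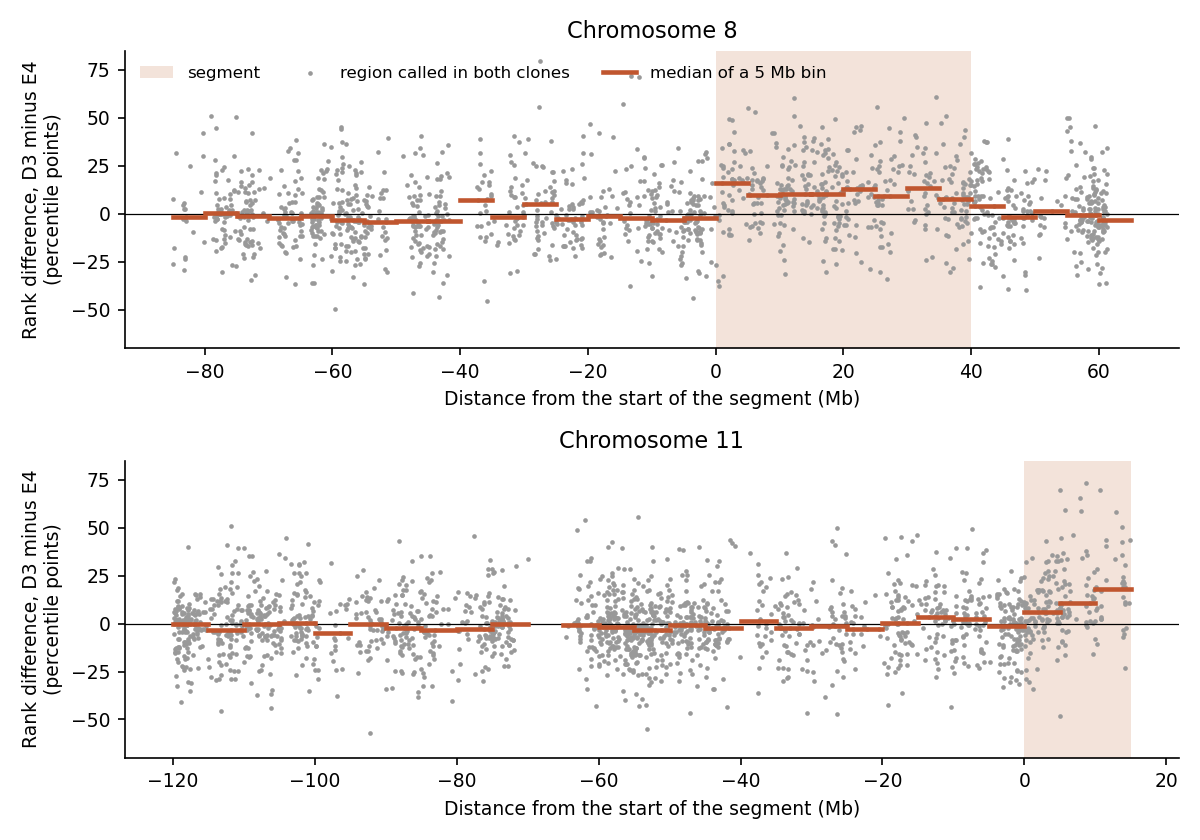
Rank difference of each shared region (grey points; D3 minus E4, percentile points, y axis) along chromosomes 8 and 11, by distance from the start of the segment in Mb (x axis); red lines are medians of 5 Mb bins with 20 or more regions and shading marks the segment. Bin medians lie between 7.86 and 16.1 points inside the chromosome 8 segment, and climb from 5.88 to 18.1 points over the 3 bins at the end of chromosome 11.

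At the end of 11q 6 genes were counted in the same way at full length. At equal length SORL1 had 3 peaks and JAM3 2 in each clone. NTM and OPCML are neighbouring genes of cell adhesion proteins of the IgLON family. NTM had 16 D3 and 3 E4 peaks, with its 3 shared regions at a median of 40.4 points higher in D3. OPCML had 5 D3 and 2 E4 peaks, with a median of 46.0 points over its 2 shared regions. ETS1 and FLI1 encode transcription factors of the ETS family. ETS1 had 2 D3 peaks and no peak in E4 or WT, and FLI1 had 3 D3 and 2 E4 peaks, the 2 shared regions at a median of 55.7 points higher in D3. SORL1, a sorting receptor gene, had 5 D3 and 3 E4 peaks, all 3 shared regions ranking higher in D3. JAM3, a junctional adhesion gene, had 2 peaks in each clone, 1 of them ranking higher in D3.

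Bins where E4 ranked higher were scattered over 12 chromosomes. The lowest medians were −10.4 points at 25 to 30 Mb of chromosome 14 (46 shared regions, 11 higher in D3) and −10.2 points at 65 to 70 Mb of chromosome 4 (36 regions, 9 higher in D3). At 45 to 50 Mb of chromosome 14 the median was −7.98 points over 47 regions. The most densely bound of these bins was 60 to 65 Mb of chromosome 20, with 103 shared regions, 17 of them higher in D3, and a median of −8.70 points. A D3-only run whose span overlaps CDH4, described below, ends inside it.

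D3-only regions formed longer runs than E4-only regions. A run is a series of neighbouring regions of 1 clone with no region of the other clone, or of both, between them. At equal length 69.3% of the D3-only and 72.8% of the E4-only regions stood alone, and 24 D3 runs and 9 E4 runs held 5 regions or more. The 24 D3 runs lay on 14 chromosomes, held 141 regions (2.73% of the D3-only regions) and had a median span of 670 kb. WT peaks overlapped 81 of the 141 regions (57.4%, 48.8 to 65.7), and 23 of the 24 runs held at least 1. The 9 E4 runs held 48 regions (0.976% of the E4-only regions), of which WT peaks overlapped 11 (22.9%, 12 to 37.3), in 4 of the 9 runs. Only the D3 list was shortened, so weak E4 peaks were kept where weak D3 peaks were not: the span of every one of these E4 runs held 1 to 5 peaks of the full D3 list. With both lists reduced to their 20000 strongest peaks, there were 19 D3 runs and 3 E4 runs. At full length there were 300 D3 runs, with 1855 regions, and 0 E4 runs, the longest E4 run having 3 regions. Since 34% of D3 peaks but 2.53% of E4 peaks were unmatched at that length, these counts cannot be compared between the clones.

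**Figure D3:**
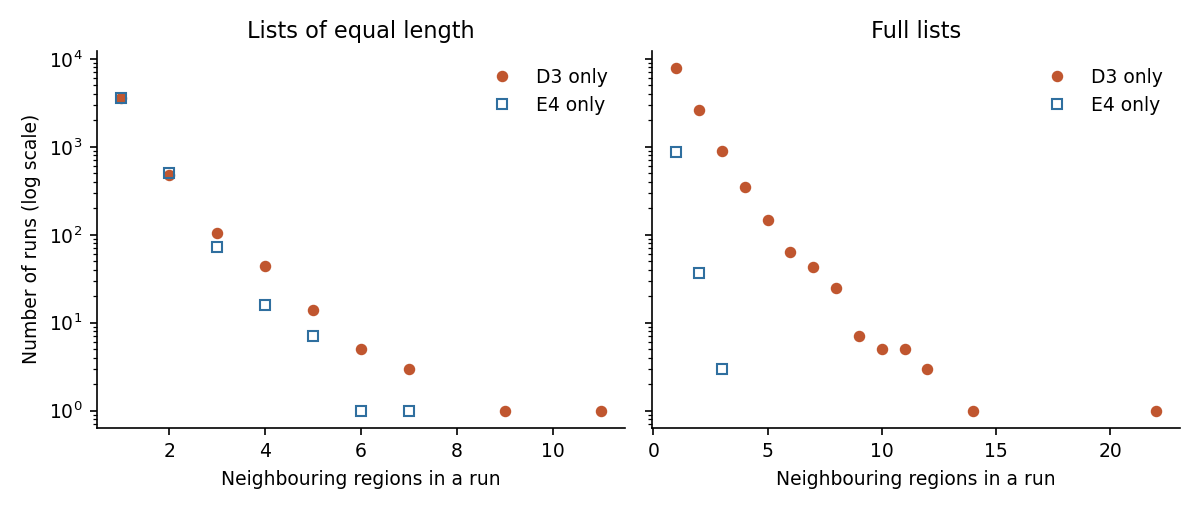
Number of runs (y axis, log scale) by the number of neighbouring regions of 1 clone in a run (x axis), for lists of equal length (left) and full lists (right). At equal length the longest D3 run has 11 regions and the longest E4 run 7; at full length they have 22 and 3.

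The longest D3 run lay on the short arm of chromosome 18, at chr18:5600484-8052787. It held 22 D3 regions at full length and 11 at equal length, across L3MBTL4, ARHGAP28, LAMA1, the gene of the laminin alpha 1 chain, and PTPRM, a receptor tyrosine phosphatase gene. The E4 list had no peak over 2638 kb there. Most of the 22 peaks were of middling or low strength, with a median percentile of 32.1. The strongest, chr18:7221353-7221869, was enriched 9.88-fold, with a −log10 q of 17.8. Next came chr18:6885846-6886776 with a −log10 q of 12.4 and chr18:7979750-7980971 with 12.2. WT peaks overlapped 6 of the 22, among them chr18:7979750-7980971, while the strongest had no WT counterpart.

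The run whose span overlaps CDH4, the gene of R-cadherin, had stronger peaks and more WT counterparts. Which of its regions lie inside CDH4 was not counted. It covered chr20:58650012-60218772 with 12 D3 regions at full length and 9 at equal length, in a stretch of 1666 kb without an E4 peak. WT peaks overlapped 8 of the 12. The strongest was chr20:58785631-58787024, with an enrichment of 14.7-fold and a −log10 q of 31.7 at the 90.8 percentile of the D3 list. Also above a −log10 q of 10 were chr20:59803723-59804625 with 17.7, chr20:59837946-59839140 with 14.4, chr20:58837793-58838545 with 11.7 and chr20:58712281-58713394 with 10.9. All of these but chr20:58837793-58838545 overlapped a WT peak.

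Other long D3 runs lay on chromosomes 1, 3, 6, 10, 11 and 15. At equal length 3 held 7 regions: chr10:86424890-87078102 with 6 WT counterparts, chr11:134428825-134732077 at the end of the 11q segment with 4, and chr15:86683058-88784758 over AGBL1 and NTRK3, a neurotrophin receptor gene, with 2. The E4 list had no peak over 2378 kb around the last. At full length there were runs of 14 regions at chr1:12882341-13898173 over the PRAMEF gene cluster, whose near-identical copies make the placement of reads uncertain, and of 12 regions at chr1:14292130-14935261 over KAZN. A run of 12 regions, chr6:168472429-169215693 over SMOC2 and DACT2, had 9 WT counterparts, and one of 11 regions, chr11:130849230-131542069 inside NTM, had 2. The run of 11 weak regions at chr3:40791600-41422506, whose span passes over CTNNB1, the beta-catenin gene, and into ULK4, had a median percentile of 8.29. WT peaks overlapped 3 of its regions. None of its regions lay at CTNNB1 itself, which had no D3, E4 or WT peak within 10 kb.

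Shorter D3 runs also held strong peaks. On chromosome 8, outside the 8q segment, a run of 10 regions near GFRA2, a receptor gene of the GDNF family, covered chr8:20360636-21590267. Its member chr8:20898260-20899384 was enriched 15.1-fold, with a −log10 q of 38.0, and the other 9 had a −log10 q from 2.31 to 11.4. WT peaks overlapped 6 of the 10. At chr19:21190675-22064048, in a cluster of zinc finger genes with ZNF430, ZNF431, ZNF429, ZNF100 and ZNF43, 5 regions lay in a stretch of 2002 kb without an E4 peak, and 4 overlapped a WT peak. At chr2:16083207-16707145, starting inside MYCN, a transcription factor gene of the MYC family, 5 of 6 regions overlapped a WT peak. Counted on the full lists, 52 stretches between consecutive E4 peaks held at least 5 D3 peaks whose −log10 q reached 5. Stretches between consecutive D3 peaks that held as many such E4 peaks numbered 0. In all, 5046 unmatched D3 peaks but only 45 unmatched E4 peaks reached that limit at full length. These stretch counts therefore follow the lists and cannot be compared between the clones.

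The longest E4 run lay on chromosome 21. At chr21:36510914-37021233, 89.3 kb from RUNX1, a transcription factor gene of blood development, it held 7 E4 regions at equal length with 1 peak of the full D3 list between them. Its strongest member, chr21:36880644-36881106, was enriched 5.84-fold, with a −log10 q of 6.77, and the other 6 had a −log10 q from 1.90 to 6.23. WT peaks overlapped 3 of the 7. The second, chr13:22486909-23224806, held 6 regions, 4 of them with a WT peak, and 1 D3 peak. The other 7 runs had 5 regions each. Among them, chr2:79450674-80083053 over CTNNA2, a neural catenin gene, chr1:189933850-190290465 over BRINP3 and chr10:18978307-19973305 over MALRD1 had no WT peak. The run at chr2:227443651-227595712, 0.321 kb from IRS1, the insulin receptor substrate gene, and that at chr5:60653673-60938411 over ZSWIM6 had 2 each. The runs at chr7:26547358-26660366, 46.3 kb from SKAP2, and chr4:66808794-67557228 had none. At full length the longest E4 runs had 3 regions, at chr21:36510914-36713066 and chr21:36880644-37021233, both inside the chromosome 21 run, and at chr13:22486909-22830864, inside that on chromosome 13.

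Unmatched shares also differed between whole chromosomes. At equal length the D3 share of 13.5% over all autosomes was exceeded, beyond the exact interval, on chromosome 21 with 22% (18 to 26.4), chromosome 8 with 18.2% (16.4 to 20), chromosome 13 with 16% (13.6 to 18.6) and chromosome 2 with 15.2% (13.9 to 16.5). It was lower on chromosomes 1, 7, 12, 17, 19 and 22, and lowest on chromosome 17 with 9.94% (8.63 to 11.4). The E4 share of 12.9% was exceeded on chromosome 13 with 18.2% (15.7 to 20.9), chromosome 6 with 15.2% (13.7 to 16.7) and chromosome 4 with 15% (13.4 to 16.6). It was lower on chromosomes 15, 16, 17 and 19, and lowest on chromosome 19 with 9.67% (8.18 to 11.3). At equal length chromosome 13 was thus high for both clones, and chromosomes 17 and 19 low for both. Chromosomes 2, 8 and 21 were high for D3 only, with E4 shares of 12.8%, 11.7% and 14.1% whose intervals held the autosomal share. This depended on list length. At full length chromosome 21 was high for both clones, with 41.2% (37.2 to 45.3) in D3 and 4.97% (2.97 to 7.74) in E4. The autosomal shares at that length were 34% and 2.53%, and no other chromosome was high for E4.

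**Figure D4:**
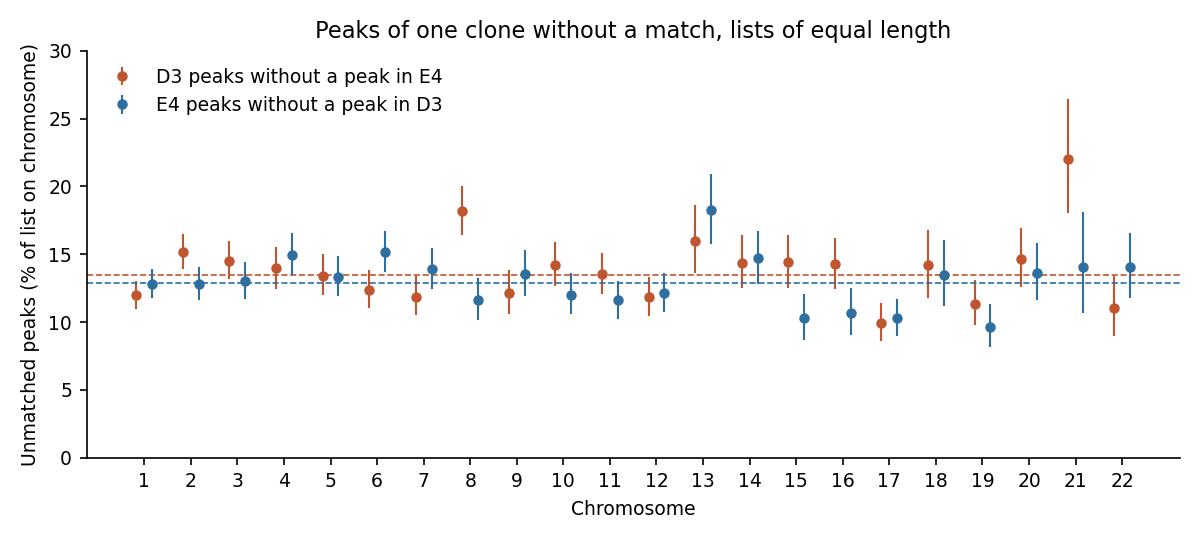
Share of each clone's peaks without a peak of the other clone (y axis, percent) by chromosome (x axis) at equal list length; points are shares, bars exact 95% intervals of counting error and dashed lines the shares over all autosomes (13.5% for D3, 12.9% for E4). D3 stands highest on chromosomes 21 (22%) and 8 (18.2%), and E4 on chromosome 13 (18.2%).

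Single bins stood out by their unmatched share as well. At equal length 7 of 502 bins with 30 or more D3 peaks had an interval wholly above 1.5 times the autosomal share. They were 15q at 20 to 25 Mb with 40%, 6q at 165 to 170 Mb with 38.9%, 17p at 10 to 15 Mb with 38.2%, 11q at 130 to 135 Mb with 37.3%, 18p at 5 to 10 Mb with 35.3%, 3p at 25 to 30 Mb with 34.1% and 8q at 110 to 115 Mb with 33.3%. The 6q, 11q and 18p bins hold runs described above. By rank the 15q, 8q and 11q bins were D3-higher bins at both list lengths, and the 6q bin at equal length only. The 17p, 18p and 3p bins were so at neither length. Of the 499 bins with 30 or more E4 peaks, 4 did so: 18q at 35 to 40 Mb with 36.8%, 1q at 190 to 195 Mb with 36.6%, 1p at 80 to 85 Mb with 35.9% and chromosome 4 at 65 to 70 Mb with 34.2%. By rank the last was an E4-higher bin at both list lengths, with a median of −10.2 points at full length. The 18q bin was so at full length, with −6.16 points, but not at equal length, with −0.964. The 1q and 1p bins were so at neither length. The balance depended on list length: at full length 0 of 541 bins passed for D3 and 9 of 499 for E4. Only 18q at 35 to 40 Mb passed for the same clone at both lengths. The limit scales with the autosomal share, which at full length was 34% for D3 and 2.53% for E4. E4 bins passed there with as few as 5 unmatched peaks, so the full-length counts cannot be compared between the clones.

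Some regions called in both clones stood far apart in rank. The largest difference was at chr12:2783320-2784222 inside CACNA1C, a calcium channel gene, with a −log10 q of 36.8 in D3 and 2.26 in E4, that is ranks of 90.7 and 8.72 and a difference of 82.0 points. At chr2:127534589-127535661 the ranks were 95.6 and 16.4, and the WT peak stood at the 97.0 percentile of its list. Also above 76 points were regions inside SLCO3A1, an anion transporter gene (81.1), TENM2, a teneurin gene (78.3), ELAPOR1 (78.2) and PDE4D, a cyclic AMP phosphodiesterase gene (76.5), and regions given no gene here at chr19:43531661-43532935 (81.8), chr21:10000403-10001502 (79.8), chr8:57469896-57471214 (79.6) and chr10:85768344-85769140 (76.2). The opposite differences were smaller. The largest was at chr6:30909369-30911233 in MUCL3, a mucin-like gene, with a −log10 q of 5.66 in D3 and 20 in E4, ranks of 13.6 and 82.9 and a difference of −69.2 points. Regions inside MYCBP2, a ubiquitin ligase gene (−66.6), B3GLCT, a glucosyltransferase gene (−66.1), VCAN, the versican gene (−63.3), ABHD8 (−61.1) and the clock gene PER2 (−61.1) followed. In all, 241 regions ranked 50 points or more higher in D3 and 58 in E4.

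Shared peaks were wider in D3. In the 36535 regions with exactly 1 peak of each clone, the D3 peak had a median width of 1065 bp and the E4 peak of 765 bp, the median ratio was 1.35 (95% interval of the median 1.34 to 1.35), and D3 was wider in 83.7%. D3 peaks were at least 2 times as wide in 6039 pairs (16.5%), and E4 peaks in 208 (0.569%). The ratio was 1.35 with lists of equal length too. By decile of D3 rank it was 1.30 in the weakest, highest in the third with 1.5, and lowest in the strongest with 1.20. By decile of E4 rank there was no dip at the weak end: the ratio was 1.55 in the weakest, 1.58 in the second and 1.22 in the strongest. It was larger where D3 also ranked higher: the median ratio was 1.64 in the 3891 pairs ranked 20 points or more higher in D3, 1.35 in the 3613 ranked as much higher in E4 and 1.32 in the other 29031.

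**Figure D5:**
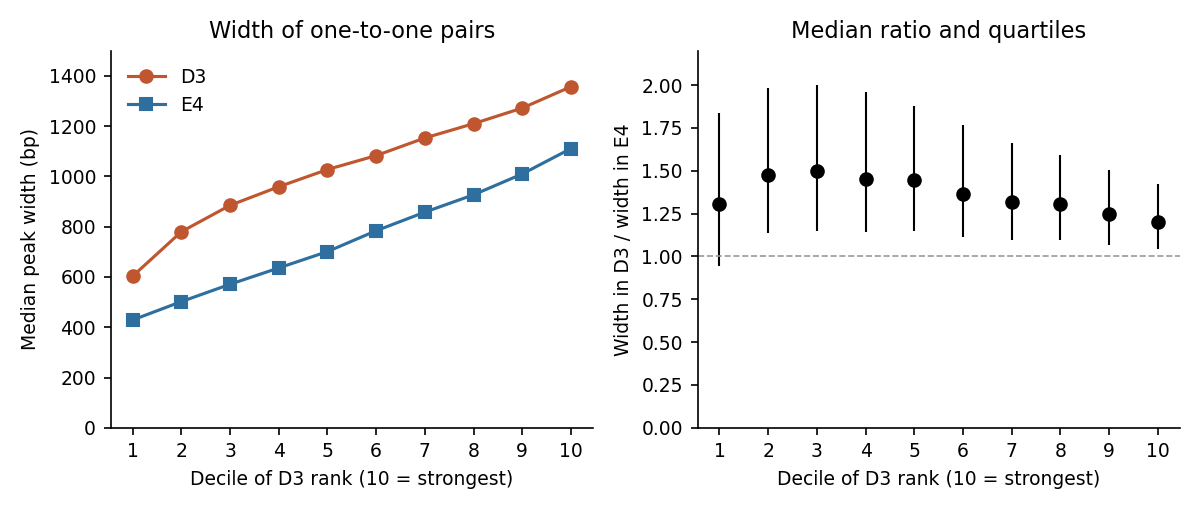
Left, median width (bp, y axis) of D3 and E4 peaks in one-to-one pairs by decile of D3 rank (x axis, 10 the strongest); right, the ratio of D3 to E4 width (y axis), with points for medians and bars for quartiles. D3 medians lie above E4 medians in every decile, and the ratio goes from 1.5 in the third decile to 1.20 in the strongest.

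Width ratios varied along the genome. Among bins of 5 Mb the median ratio was highest, at 2.06, at 130 to 135 Mb of chromosome 11, the end of the 11q segment. It was 1.94 at 0 to 5 Mb of chromosome 2, 1.85 at 105 to 110 Mb of chromosome 8, inside the 8q segment, and lowest, at 1.04, at 65 to 70 Mb of chromosome 9. The most unequal pair was chr20:24761525-24765311, 3787 bp in D3 and 307 bp in E4, a ratio of 12.3. It was followed by chr11:61656847-61659773 with 2927 and 294 bp, chr3:62651137-62653813 with 2677 and 277 bp, chr20:24080934-24083739 with 2806 and 303 bp and chr8:139710543-139713086 with 2544 and 281 bp. The widest excess in E4 was at chr16:4743395-4745607, 304 bp in D3 and 2213 bp in E4, 7.28 times as wide. The next were chr16:25025861-25027396 with 259 and 1536 bp and chr6:42531403-42533214 with 330 and 1703 bp. All of these E4-wide pairs were weak in both clones, with ranks up to 19.

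Across gene lists the clones differed about as much as over the genome. Within 10 kb of the 71 genes and clusters there were 281 D3 and 189 E4 peaks, and 92 of the D3 peaks (32.7%) had no E4 peak, beside 34% of all D3 peaks. At equal length it was 15.6%, beside 13.5%. The protocadherin cluster, whose promoters are chosen through CTCF, had 31 D3 and 10 E4 peaks, with 21 of the D3 peaks unmatched (67.7%). At equal length 9 of its 18 D3 peaks were unmatched (50%). The 3 insulator genes together had 8 and 3. Imprinted genes had 46 D3 and 28 E4 peaks, with GRB10, a growth-limiting adaptor gene, at 12 and 6, KCNQ1, a potassium channel gene that holds an imprinting control region, at 7 and 4, and PLAGL1 at 6 and 3. The HOX clusters had 39 and 31, with HOXA at 12 and 7, HOXB at 12 and 11, HOXC at 9 and 7 and HOXD at 6 in each. At equal length GRB10 had 5 D3 and 6 E4 peaks, KCNQ1 5 and 4, PLAGL1 5 and 3 and HOXA 8 and 7. HOXB then had 11 in each clone, HOXC 7 and HOXD 6. The HOX clusters together had 32 and 31, and the insulator genes 6 and 3.

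Genes of CTCF and cohesin had 42 D3 and 30 E4 peaks. NIPBL, the cohesin loader gene, had 8 and 5 and its partner MAU2 had 5 and 3, while PDS5B, a cohesin regulator gene, had 5 in each and CTCFL, the testis paralogue of CTCF, 6 in each. WNT targets had 44 and 35, with NKD1, a WNT inhibitor gene, at 6 and 4. Among colorectal cancer genes (35 and 25), TCF7L2, the transcription factor partner of beta-catenin, had 10 and 4 and FBXW7, a ubiquitin ligase gene, 9 and 7. Among colon epithelial genes (31 and 21), HNF4A, a transcription factor gene of intestine and liver, had 6 and 2. The 8q24 genes had 5 D3 and 6 E4 peaks, the only list with more E4 peaks at full length. At equal length WNT targets, with 29 and 35, and imprinted genes, with 27 and 28, also had more E4 peaks. CTCF and cohesin genes then had 33 and 30, colorectal cancer genes 27 and 25 and colon epithelial genes 22 and 21. Among the genes named here, NIPBL had 4 and 5, CTCFL 5 and 6, MAU2 4 and 3, TCF7L2 5 and 4 and HNF4A 4 and 2. NKD1 had 4 peaks in each clone at equal length, PDS5B 5 and FBXW7 7.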

How the data were processed

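CTCF ChIP-seq peak lists of 3 HCT-116 libraries (clone D3, clone E4 and WT, 1 each) were used as deposited. The 3 libraries without antibody were not analysed here. Build hg19 and the tools MACS2 2.2.7.1, bedtools 2.29.2, Picard 2.23.1 and CASAVA 1.8.2 stand in the submitters' processing notes, without role or order. The aligner and the settings of peak calling are not given in the sources used here. Each deposited list gives, per peak, a fold enrichment (a linear ratio) and −log10 p and −log10 q values as the authors deposited them. The authors' deposited score column was not used. Peaks were called per library.

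Peaks on chromosomes 1 to 22 were kept, all widths and strengths included. Overlaps, merged regions, ranks, 5 Mb bins, runs and widths were computed with Python 3.11.15, after checks on simulated lists with known answers. Lists of equal length were made by −log10 q, ties by fold. Intervals are exact binomial ones at 95%. The interval of a median comes from order statistics. No test was run, and read depth is unknown, so precision beyond counting error cannot be given.

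Sites were named by rule: the 10 strongest unmatched peaks and the 10 largest rank differences each way, the 5 longest runs per clone and list length, every segment of 3 or more bins, and the 5 largest width ratios each way, of which the text gives some by range or leaves out. Genes beside sites and along segments were picked after positions were seen. Runs at ULK4, inside NTM, at GFRA2, in the chromosome 19 zinc finger cluster and at MYCN were also chosen after their values were seen. The members and gene lists were chosen with earlier results of these data known. Gene windows in hg19 were written from general knowledge and checked against RefSeq (GRCh38) names and neighbour order only: 132 of 132 single genes lay on the same chromosome. Alternatives changed list length, ranking value, overlap, bin size, rank limit and run length. Reducing both lists to 20000 peaks for runs was added after seeing the data.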

Additional observations from a re-analysis of the deposited data

How the results depend on the processing

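Of 39 alternative values, 15 stayed close to the value at the reported setting and 24 moved. Overlap shares and the width ratio counted as close inside the 95% interval of the reported value. Counts of bins and runs counted as close within a factor of 1.5. These limits are unlike, and that for shares is the narrower, so the tally does not show which results were steadier. E4 overlapped 66.0% of D3 peaks at full length, 85.7% at equal length by fold, 71.8% when 50% of a peak had to be covered, 65.4% at a −log10 q of 5 or more, 83.4% with 20000 peaks a list and 77.1% with 10000. D3 overlapped 97.5%, 86.4%, 86.5%, 98.2%, 83.9% and 77.4% of E4 peaks under the same settings. Bins with D3 higher numbered 10 with bins of 10 Mb, 53 with bins of 2 Mb and 8 with a limit of 10 points, and bins with E4 higher 3, 69 and 2, where the number of bins itself changes with their size. The balance between the clones turned with it: D3-higher bins outnumbered E4-higher ones at 5 and 10 Mb but not at 2 Mb. There were 300 D3 runs and 0 E4 runs of 5 or more regions at full length, 1 and 0 of 10 or more regions, and 3 E4 runs with both lists at 20000 peaks. The median width ratio was 1.29 at a −log10 q of 5 or more. What caused them to move was not tested. No paired analysis was possible because the clones share only replicate number 1, and with 1 library a clone none could be left out. Read depth is unknown, so a missing weak peak was not called at this depth and cannot be shown to be absent.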
